A study of Mus musculus with 8 samples.

Results

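The 6 anterior HoxA genes measured here were Hoxa2, Hoxa3, Hoxa4, Hoxa5, Hoxa6 and Hoxa7, homeobox genes that lie side by side on mouse chromosome 6. They were chosen by name, and each was given the counted interval that best matched its RefSeq span, where the shared bases made up at least 0.5 of the joint span. All 6 were found, among 20278 RefSeq genes that could be matched in the same way to the 50398 intervals of the table. H3K27me3, trimethylation of lysine 27 on histone H3, was measured by chromatin immunoprecipitation and sequencing in E14tg2a mouse embryonic stem cells of 129SV background. All cells stably carried a cRAF-ErT2 cassette, a RAF kinase that 4-hydroxytamoxifen (4OHT) switches on to drive ERK signalling; the promoter of the cassette is not given in the sources used here. Before treatment all cells were kept for 24 h in medium with serum, LIF and the FGF receptor inhibitor PD173074 (250 nM), having been grown with serum, LIF and the GSK3 inhibitor Chir99021 (2 uM). The treated group received 250 nM 4OHT for 2 h, and the untreated group, called 0 h, received none. Each time holds 1 library of clone A and 1 of clone B, so n = 2 per time and 4 libraries in all.

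Polycomb repressive complex 2 writes H3K27me3, and Polycomb repressive complex 1 reads it and compacts the marked chromatin. In embryonic stem cells the Hox clusters are classical Polycomb targets, kept silent until the body axis forms. The anterior genes of a cluster are then released first, beginning in the hindbrain and pharyngeal arches under retinoic acid, and the posterior ones later. In mammals, CpG-rich promoters are known as places where Polycomb complexes gather.

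RefSeq promoter sequences (assembly GRCm38.p6, equal to mm10) were found for 5 of the 6 genes, and Hoxa4 had no entry in the table used. Each promoter covers 250 bases before to 50 bases after a transcription start. Those of Hoxa6 and Hoxa5 are shown because they hold many CpG dinucleotides, and that of Hoxa2 because it holds fewer, near the promoter median. The genes of these promoters all carried dense mark. All 3 lie on the minus strand and are printed 5′ to 3′ with every CpG dinucleotide in capitals. Hoxa6 is chr6:52208623-52208922, Hoxa5 is chr6:52204538-52204837 and Hoxa2 is chr6:52164782-52165081.
Hoxa6: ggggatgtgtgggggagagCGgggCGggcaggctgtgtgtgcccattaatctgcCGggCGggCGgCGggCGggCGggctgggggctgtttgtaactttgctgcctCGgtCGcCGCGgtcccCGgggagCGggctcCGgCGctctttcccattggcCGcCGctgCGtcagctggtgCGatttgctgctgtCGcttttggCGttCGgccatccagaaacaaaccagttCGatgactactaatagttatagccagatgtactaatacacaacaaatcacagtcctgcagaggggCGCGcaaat
Hoxa5: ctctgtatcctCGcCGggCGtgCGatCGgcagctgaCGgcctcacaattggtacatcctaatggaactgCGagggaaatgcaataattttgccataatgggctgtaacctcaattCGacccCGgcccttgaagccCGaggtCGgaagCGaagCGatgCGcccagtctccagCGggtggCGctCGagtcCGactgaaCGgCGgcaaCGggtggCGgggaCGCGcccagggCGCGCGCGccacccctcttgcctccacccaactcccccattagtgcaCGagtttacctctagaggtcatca
Hoxa2: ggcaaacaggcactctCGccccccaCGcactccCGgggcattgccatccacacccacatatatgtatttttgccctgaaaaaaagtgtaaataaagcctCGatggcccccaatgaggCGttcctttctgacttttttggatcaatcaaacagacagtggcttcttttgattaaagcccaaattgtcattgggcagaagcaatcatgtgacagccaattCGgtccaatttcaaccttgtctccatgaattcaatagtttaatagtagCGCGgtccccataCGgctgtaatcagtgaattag

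CpG content varied widely among these promoters. The Hoxa5 promoter held 29 CpG dinucleotides, the Hoxa6 promoter 26 and the Hoxa3 promoter 20, while those of Hoxa2 and Hoxa7 held 9 each. The median was 7 over all 32851 promoters of the table. It was 16 over the 815 genes with a promoter entry whose interval carried at least 4 times the median density, against 8 over 15332 other matched genes. The ratio of observed to expected CpG was 1.02 for Hoxa5, 0.923 for Hoxa6, 0.657 for Hoxa3, 0.589 for Hoxa2 and 0.405 for Hoxa7. From most to fewest CpGs, the mean density of the mark over the gene was 4.97 for Hoxa5, 5.57 for Hoxa6 and 4.27 for Hoxa3, and 4.99 for Hoxa2 and 5.11 for Hoxa7, which held equal numbers.

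Of 4 short motifs searched on both strands, each occurred in at most 1 of the 5 promoters. TGATNNAT, bound by Hox and Pbx dimers, occurred at 1 position in the Hoxa2 promoter and in 8.85% of all promoters. TTTATG, a Cdx core site, occurred at 2 positions in the Hoxa7 promoter and in 11.9% of all promoters. AGGTCA, a nuclear receptor site, occurred at 1 position in the Hoxa5 promoter and in 16.3% of all promoters. TAATTA, a homeodomain core, occurred in 0 of the 5 promoters and in 5.29% of all. The absence of these letters says nothing about binding of the factors.

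The values are read counts over whole transcript intervals, given as a density in counts per kb of interval per 1000000 counts of the library's column. Column totals were 92518605 and 85062523 at 2 h in clones A and B, and 70378127 and 81279899 at 0 h. Many intervals overlap, so these totals count some reads several times and are not sequencing depths. The 6 genes had between 629 and 18239 counts per library, and counting error alone was 3.99% of the value at the lowest of these. No input library was analysed here, so the density is not an enrichment over input. In a population of cells, fewer cells with the mark and less mark per cell cannot be told apart. The mark was sparse over genes that stem cells or all cells use: 0 of 5 measured stem cell genes, among them Nanog and Sox2, and 0 of 5 genes of general use, among them Actb and Gapdh, reached 4 times the median. Among markers of other cell types the culture could hold, Sox17 and Foxa2 but not Pdgfra of primitive endoderm reached that limit, and 1 of 5 fibroblast markers did, Thy1. Transcripts were not measured.

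All 6 anterior HoxA genes were densely marked in every library. Their median density was 5.11 and 4.53 at 2 h in clones A and B, and 5.48 and 4.69 at 0 h. The median gene of the table stood between 0.351 and 0.358 in the same libraries. Averaged over the 4 libraries, the 6 genes lay between 11.9 and 15.6 times the median gene, and all 6 passed 4 times the median, a limit that 5.76% of the 20278 genes passed. They also passed 8 times the median, a limit reached by 1.98% of genes, and 2 times the median, reached by 18.8%. The limit of 4 was taken from an earlier look at these data.

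Hoxa6, which patterns the thoracic skeleton, had the highest density of the 6 in each of the 4 libraries. At 2 h in clone B its lead over Hoxa7 was 0.0165, within counting error. Hoxa6 measured 5.91 and 5.004 at 2 h in clones A and B, and 6.29 and 5.07 at 0 h. Its interval (chromosome 6, 52206365 to 52208624, mm10) covers 2260 bp and only part of the RefSeq gene, with an overlap of 0.592 of the union. On the mean of 4 libraries, at 15.6 times the median gene, it ranked 1 among 12405 coding genes with an interval of 1000 bp or more, and in single libraries it ranked between 1 and 3. Its mean of 5.57 ± 0.631 lay within the spread of the next gene, Hoxd10, at 5.48 ± 0.552 (SD, n = 4 libraries).

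Hoxa7, a thoracic patterning gene next to Hoxa6 (52215623 to 52218573), measured 5.07 and 4.99 at 2 h, and 5.59 and 4.77 at 0 h, in clones A and B. At 2 h the clones differed little at this gene, with an SD of 0.0551, against 0.581 at 0 h. Hoxa2, which specifies the second pharyngeal arch and parts of the hindbrain (52162417 to 52164831), measured 5.15 and 4.54 at 2 h, and 5.64 and 4.65 at 0 h. Hoxa5, needed for lung and cervicothoracic development (52201754 to 52204587), measured 5.24 and 4.53 at 2 h, and 5.36 and 4.73 at 0 h. In all 3 genes the clone A library was above the clone B library at both times, and the 2 h and 0 h values overlapped.

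Hoxa4, active in the caudal hindbrain and neck (52189687 to 52191703), measured 4.88 and 4.36 at 2 h in clones A and B, and 4.54 and 3.84 at 0 h. It was the 1 gene of the 6 whose value was higher at 2 h than at 0 h in both clones, although the 2 times overlapped. Hoxa3, needed for thymus and parathyroid formation, has a much longer interval of 44006 bp (52169062 to 52213067). It measured 4.48 and 3.99 at 2 h, and 4.59 and 4.01 at 0 h.

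The order of mean density over 4 libraries was Hoxa6, Hoxa7, Hoxa2, Hoxa5, Hoxa4 and Hoxa3, and the highest mean was 1.30 times the lowest. Hoxa6 exceeded Hoxa7 by 0.462 ± 0.375 and Hoxa5 exceeded Hoxa4 by 0.562 ± 0.356 (SD, n = 4 libraries), each in 4 of 4 libraries. The smallest lead of Hoxa6 over Hoxa7 was 0.0165, within counting error. The other neighbours in the order did not differ beyond their spread. Hoxa7 minus Hoxa2 was 0.113 ± 0.240, Hoxa2 minus Hoxa5 was 0.0272 ± 0.171, and Hoxa4 minus Hoxa3 was 0.136 ± 0.294, each positive in 2 of 4 libraries. Hoxa4 stood above Hoxa3 in both 2 h libraries and below it in both 0 h libraries. Density did not follow the order of the genes along the chromosome.

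**Figure D1:**
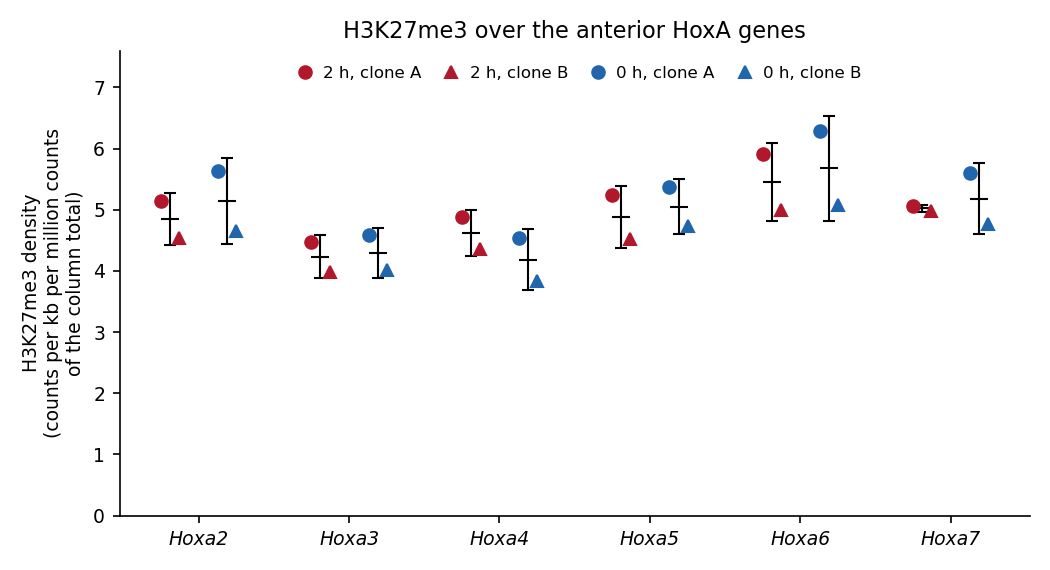
H3K27me3 density (counts per kb and per 1000000 of the column total) over each anterior HoxA gene in the 4 libraries, with genes in chromosomal order, 2 h left of 0 h in each gene, circles for clone A and triangles for clone B. Horizontal ticks and bars are the mean and SD of the 2 libraries of a time; the 2 times overlap at every gene, clone A lies above clone B at every gene and time, and Hoxa6 reaches 6.29.

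The Hoxa3 interval contains the whole intervals of Hoxa4, Hoxa5 and Hoxa6, so the 4 genes share reads. The 3 shorter genes together made up 16.2% of its length and 18.9% of its counts. Hoxa2 and Hoxa7 overlapped 0 other intervals. The table also counts 5 nested Hoxa3 intervals that end at the same 3′ base, and the differences between successive ones give the counts of 5 segments of the span.

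All 5 segments of the Hoxa3 span carried the mark, at different densities. The first 6814 bp from the 3′ end had a density of 4.74 ± 0.504 and the next 4772 bp had 5.02 ± 0.282 (SD, n = 4 libraries). The 2963 bp after that (52180648 to 52183610) had 3.07 ± 0.208, the lowest of the 5 segments and still 8.60 times the median gene. Its values were 3.22 and 2.84 at 2 h in clones A and B, and 3.28 and 2.95 at 0 h, below every other segment in every library. The values say nothing of variation inside a segment, and 1 segment makes up 65.4% of the span. This long segment of 28785 bp, which holds Hoxa4, Hoxa5 and Hoxa6, had 4.13 ± 0.282, and 3.84 ± 0.230 once the counts and lengths of these 3 genes were taken out. A read counted in 1 of these genes while crossing its edge is taken out with it, which can lower the remainder. The last 672 bp, next to the most distal Hoxa3 start, had 5.37 ± 0.541. This segment held only 265 to 347 counts per library, and its spread overlapped that of the second segment. Reads that cross an edge can weigh more in so short a segment.

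**Figure D2:**
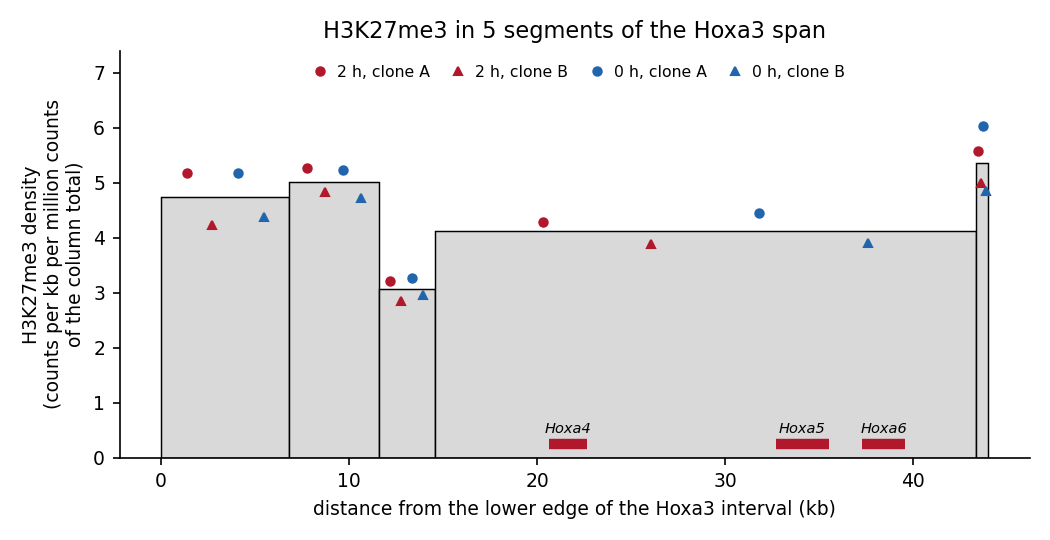
H3K27me3 density (counts per kb and per 1000000 of the column total) in 5 segments of the Hoxa3 span against distance in kb from its 3′ edge. Bars are means of 4 libraries and points the single libraries (spread sideways within a bar for sight only). Red lines are the Hoxa4, Hoxa5 and Hoxa6 intervals. The third segment is lowest at 3.07, and the last, at 5.37, covers only 672 bp.

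The anterior genes sat inside a block of densely marked genes whose flanking genes were not marked. The posterior genes Hoxa9, Hoxa10, Hoxa11 and Hoxa13 and the adjoining homeobox gene Evx1 all passed 4 times the median, between 9.66 (Hoxa13) and 15.3 times (Hoxa9, the neighbour of Hoxa7). This range overlaps that of the anterior genes, and no test compared them. Outside the block, Skap2, an adaptor protein gene, stood at 0.525 times the median gene and Halr1, a non-coding gene, at 0.546 times. Of 7 flanking genes within 500 kb of the cluster, 0 passed 4 times the median, and the densest was Jazf1 at 1.78.

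Non-coding genes between and within the anterior genes carried the mark as well, at different levels. Mira, known in mouse stem cells as a transcript that acts on Hoxa6 and Hoxa7, lies between these 2 genes and stood at 19.9 times the median over a short interval of 798 bp. Reads that cross an edge can weigh more in a short interval, so levels of intervals below 1000 bp are not compared with the genes. Hoxaas2, which lies between Hoxa2 and Hoxa3 and overlaps the end of Hoxa3, stood at 16.4 times and Hoxaas3, which spans Hoxa5 and Hoxa6, at 14.4 times. Within the Hoxa3 span, 5730596B20Rik stood at 14.7 times and Gm15050 at 12.8 times. Hotairm1, which lies next to Hoxa2 and in human cells is a transcript of myeloid differentiation, was the lowest interval of the cluster at 7.11 times. It measured 2.53 and 2.41 at 2 h in clones A and B, and 2.47 and 2.76 at 0 h. Its values were below those of each anterior HoxA gene in every library.

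**Figure D3:**
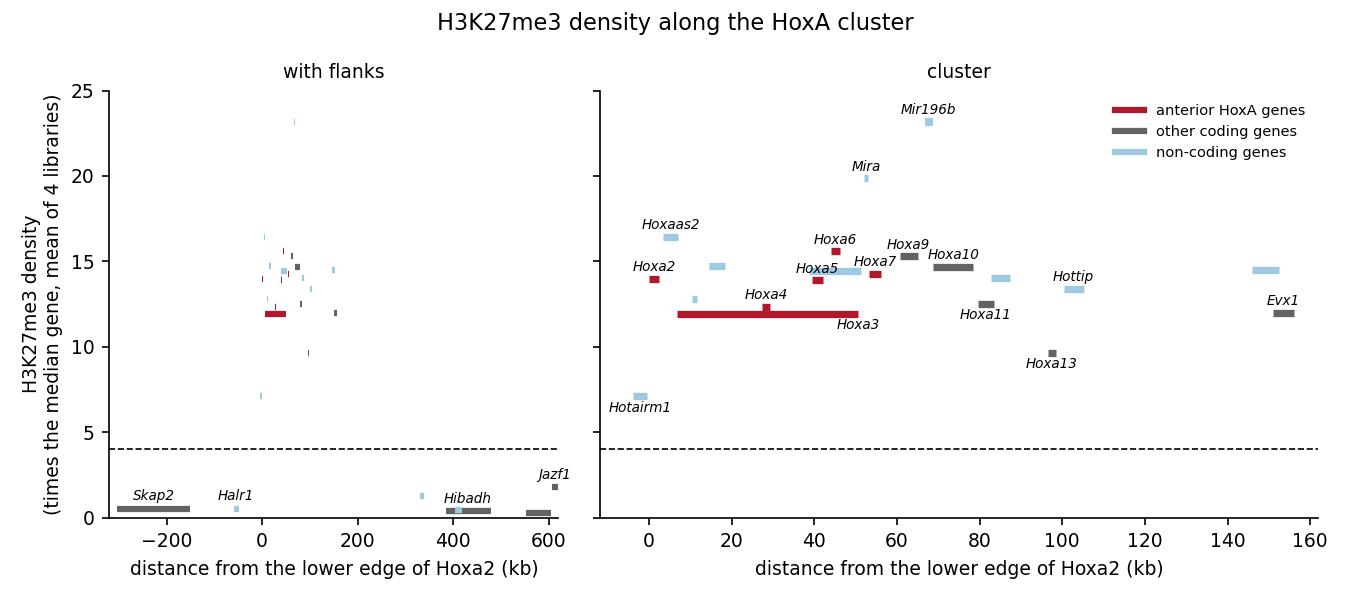
H3K27me3 density (times the median gene, mean of 4 libraries) of matched intervals along the HoxA cluster against distance in kb from the lower edge of Hoxa2, with flanking genes on the left and the cluster alone on the right. Each line is 1 gene drawn at its length (Jazf1 runs beyond the axis, and genes too short to see have a small square); the dashed line marks 4 times the median, which every gene drawn from Hotairm1 to Evx1 passes and no flanking gene does.

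Similar levels were found at other developmental regulators and at the HoxD cluster. The 5 coding genes outside HoxA whose 4 library values lay closest to the median of the anterior genes were Dlx1, Msx1, Isl2, Mnx1 and Foxf1. All 5 encode homeodomain or forkhead transcription factors. Their root mean square distance in log2 density was between 0.03 and 0.06 over 4 libraries, and 76 of 12393 genes lay within 0.25. The anterior HoxD genes Hoxd1, Hoxd3, Hoxd4 and Hoxd8 stood between 11.1 and 12.6 times the median gene, and the posterior HoxD genes between 11.3 and 15.3 times.

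The partners and regulators of the Hox genes differed from them in level. Of the TALE homeodomain cofactors, which bind DNA together with Hox proteins, 6 of 9 were measured and 0 passed 4 times the median. Meis2 stood at 1.64 times and Meis3, the densest, at 2.17. Of 14 regulators that act upstream of Hox genes in the embryo, 6 were measured and 5 passed. Cdx2, a caudal factor that activates Hox genes, stood at 14.3 times. Cyp26b1, which degrades retinoic acid, stood at 8.51, Cdx4 at 6.62 and Egr2, a regulator of hindbrain Hox genes, at 5.38 times. Aldh1a2, which makes retinoic acid, stood at 3.15 times and did not pass. The interval of Meis2 (204486 bp) is far longer than those of the Hox genes, and a mark held at a promoter would be diluted over it.

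The treatment comparison asked whether 2 h of RAF and ERK activation came with a change in H3K27me3. No anterior HoxA gene was called in either direction: edgeR's quasi-likelihood test with Benjamini-Hochberg adjustment over 50037 intervals gave 0 of 6 higher and 0 of 6 lower. It called 0% of all intervals in each direction, and 0.376% had an unadjusted p under 0.05. DESeq2 also called 0% in each direction, with 2 intervals under an unadjusted p of 0.05, and 0 of the 6 genes had an unadjusted p under 0.05 in edgeR or DESeq2. These p-values measure the spread between 2 clones of 1 line, which may be technical.

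Changes at the 6 genes were small and of both signs. Hoxa6 averaged 5.46 ± 0.638 at 2 h and 5.68 ± 0.858 at 0 h (SD, n = 2). Its log2 change was -0.06 (SE 0.16), made up of -0.07 for clone A and -0.05 for clone B. Hoxa2 averaged 4.84 ± 0.428 at 2 h and 5.14 ± 0.700 at 0 h. Its log2 change was -0.09 (SE 0.14), made up of -0.11 for clone A and -0.06 for clone B. Hoxa4 averaged 4.62 ± 0.369 at 2 h and 4.19 ± 0.495 at 0 h. Its log2 change was 0.14 (SE 0.14), made up of 0.13 for clone A and 0.16 for clone B. It had the largest size of change of the 6, and its adjusted p by edgeR was 1.00. Hoxa3, Hoxa5 and Hoxa7 gave log2 changes of -0.02, -0.05 and -0.05. At 0 of the 6 genes did both 2 h libraries lie above, or both below, the 0 h libraries, against 10.7% of all matched genes above and 8.67% below. Of the 6 genes, 4 had lower values at 2 h in both clones and 1 had higher values in both, against 22.8% and 26.3% of all intervals, and 19.9% and 37.3% of genes at 4 times the median density or more. Hoxa7 had values of opposite sign in the 2 clones, as did 50.9% of all intervals and 42.8% of these genes. Hoxa3 shares reads with Hoxa4, Hoxa5 and Hoxa6, so the counts out of 6 are not of independent genes.

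The data limit how large a change relative to other intervals could have gone unseen. Libraries were scaled to each other without an outside standard, so a change shared by all intervals would not be seen. The 95% intervals of the log2 change, unadjusted for the number of genes, ran from -0.43 at the lowest (Hoxa2) to 0.47 at the highest (Hoxa4), so all 6 lay within 1.5-fold either way. With clone as a block, which compares each clone with itself, they ran from -0.23 to 0.30, and the lowest unadjusted p was 0.0835 (Hoxa4) by edgeR, with 4.15% of all intervals under 0.05. Counts were taken over whole intervals, so a change confined to a small part of a gene could be diluted. Within the Hoxa3 span, the 5 segments changed by between -0.09 and 0.03 (log2) in clone A and between -0.08 and 0.02 in clone B, values with no test.

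The median log2 change was -0.05 over the 6 anterior genes, against 0.03 over 1157 tested genes at 4 times the median density or more and 0.01 over all intervals. It was -0.01 over the anterior and -0.02 over the posterior HoxD genes and -0.04 over the TALE cofactors. Of the genes in these lists, the upstream regulators and the other genes of the block, 0 were called by edgeR, as over all intervals.

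**Figure D4:**
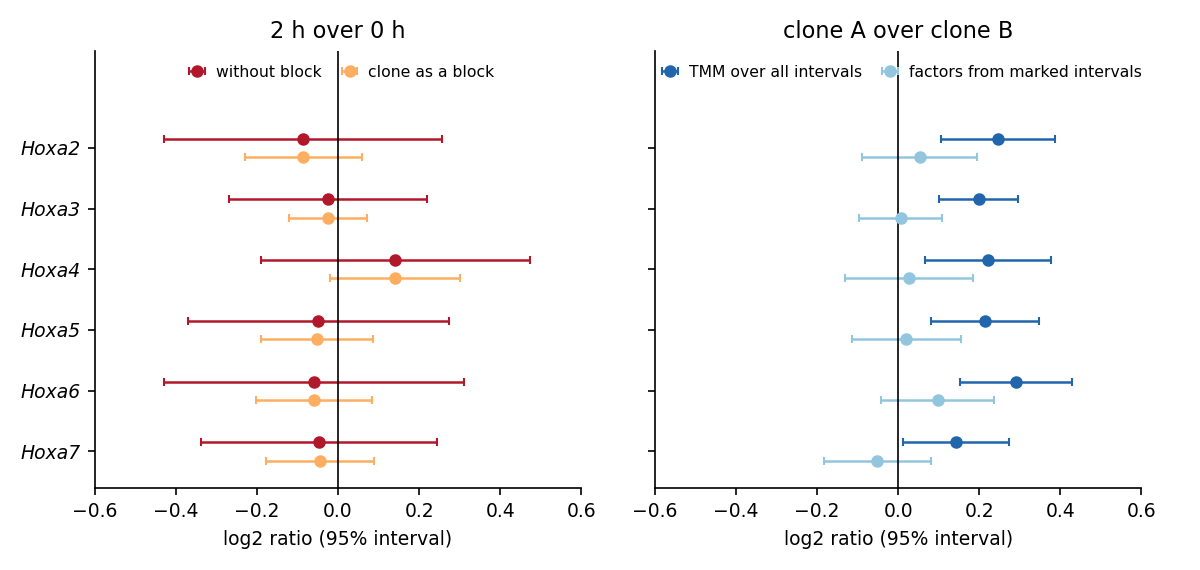
Log2 ratios with 95% intervals for the 6 anterior HoxA genes, 2 h over 0 h on the left (without and with clone as a block) and clone A over clone B on the right (library factors from all intervals or from marked intervals). All intervals on the left include 0 and reach at most 0.47, and those on the right lie above 0 with factors from all intervals and include 0 with factors from marked intervals.

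The labels also allow the 2 clones to be compared, each with a 2 h and a 0 h library. The p-values of this comparison measure the spread between the 2 h and 0 h libraries of a clone, estimated largely from all intervals together. Clone and the preparation of its libraries were not tested separately. With library factors from all intervals, the anterior HoxA genes carried more of the mark in clone A, while with factors from marked intervals 0 of 6 were called and Hoxa7 reversed. In density, both clone A libraries lay above both clone B libraries at 6 of 6 genes, a pattern shown by 28% of all matched genes and by 67.9% of the 1167 genes at 4 times the median density or more. edgeR called 5 of the 6 higher in clone A and 0 lower, against 17.3% of all intervals called higher and 10.3% called lower (adjusted p over 50037 intervals). The 5 include Hoxa3 and the genes inside its interval, Hoxa4, Hoxa5 and Hoxa6, which share reads with it. Among 1157 tested genes at 4 times the median or more, 52.7% were called higher and 3.11% lower, and among 401 genes at 8 times or more, 66.6% and 0.499%.

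Hoxa6 averaged 6.10 ± 0.269 in clone A, against 5.04 ± 0.0492 in clone B (SD, n = 2), with a log2 difference of 0.29 (SE 0.07, adjusted p = 0.000329 by edgeR). Hoxa3 averaged 4.53 ± 0.0776 in clone A, against 4.00 ± 0.0166 in clone B, with a log2 difference of 0.20 (SE 0.05, adjusted p = 0.000549 by edgeR). Hoxa2, Hoxa4 and Hoxa5 gave log2 differences of 0.25, 0.22 and 0.21, with adjusted p of 0.00359, 0.0222 and 0.00892 by edgeR. Hoxa7 averaged 5.33 ± 0.374 in clone A, against 4.88 ± 0.151 in clone B, and its log2 difference of 0.14 (SE 0.07) did not pass (adjusted p = 0.102 by edgeR). Its difference was 0.06 at 2 h and 0.22 at 0 h. In the other 5 genes the difference was between 0.20 and 0.28 at 2 h and between 0.18 and 0.30 at 0 h.

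The clone difference at the anterior genes was of the size found over densely marked genes in general. The median log2 ratio of clone A over clone B was 0.22 over the 6 genes, 0.20 over 1157 genes at 4 times the median density or more and 0.22 over 401 genes at 8 times, against 0.00 over all intervals. The 6 genes lay between percentiles 37.2 (Hoxa7) and 72.3 (Hoxa6) of the marked genes. With library factors taken from marked intervals, a setting chosen after seeing the data, the median over all intervals moved to -0.19 and 0 of the 6 genes were called. The log2 differences of the 6 genes were then between -0.05 (Hoxa7) and 0.10 (Hoxa6). The 6 are themselves among the marked genes that set these factors, so values nearer 0 were built into this setting. It restates their place among marked genes and is no separate result. All intervals called were then 5.79% higher and 41.9% lower. DESeq2 called 3 of the 6 (Hoxa2, Hoxa3 and Hoxa6), with 11.4% of all intervals called higher and 6.09% lower. With column totals, edgeR called 4 (not Hoxa4 or Hoxa7), with 15.5% of all intervals higher and 12.2% lower. With time as a term it called the same 5 genes, with 16.9% of all intervals higher and 9.91% lower.

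The calls at single genes also depended on single libraries. Without the clone B library at 2 h, 1 of the 6 genes was called higher (Hoxa4), with 10.5% of all intervals called higher and 8.77% lower. Without the clone A library at 2 h, 5 were called, with 12.9% of all intervals higher and 8.15% lower. Hoxa4 was then not called (0.15, adjusted p = 0.277 by edgeR), while Hoxa7 was (0.21, adjusted p = 0.0282 by edgeR). Without the clone B library at 0 h, 4 were called, with 12.1% of all intervals higher and 6.8% lower, and Hoxa4 was again not called (0.14, adjusted p = 0.356 by edgeR). Without the clone A library at 0 h, 4 were called, with 16.1% of all intervals higher and 7.47% lower, and Hoxa2 was not called (0.19, adjusted p = 0.0599 by edgeR). Hoxa3, Hoxa5 and Hoxa6 were called in 3 of these 4 fits, all but the one without the clone B library at 2 h.

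Other coding genes of the block gave a similar picture, while its non-coding genes varied. With library factors from all intervals, Hoxa9, Hoxa10, Hoxa11, Hoxa13 and Evx1 were all called higher in clone A by edgeR. Their log2 differences lay between 0.24 (Hoxa10) and 0.38 (Hoxa13). Of the HoxD genes, 3 of 4 anterior and 5 of 5 posterior ones were called higher. Over all intervals 17.3% were called higher and 10.3% lower, and over genes at 8 times the median density or more 66.6% and 0.499%. Calls with factors from marked intervals are not reported here for these genes. Of 9 HoxA non-coding transcripts, 5 were called higher and 0 lower. Hoxaas2 gave 0.32, Gm15050 0.33 and Hoxaas3 0.20. Mira (0.18, adjusted p = 0.158 by edgeR) and 5730596B20Rik (0.14, adjusted p = 0.0654 by edgeR) were not called. All of these but Mira overlap the Hoxa3 interval. Hotairm1, the least marked interval of the cluster, gave -0.03 (SE 0.08, adjusted p = 0.844 by edgeR) and Halr1, outside the block, -0.15 (SE 0.14, adjusted p = 0.487 by edgeR). Of the 7 flanking genes, 0 were called. Among markers of other cell types, the mark was called higher in clone A at 2 of 3 primitive endoderm genes, Sox17 and Foxa2. These stood at 12.3 and 10.8 times the median, and 66.6% of all genes at 8 times or more were called higher. Of 5 fibroblast genes, 2 were called higher and 1 lower, against 17.3% and 10.3% of all intervals. The part of other cell types in the clone difference was not tested.

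**Figure D5:**
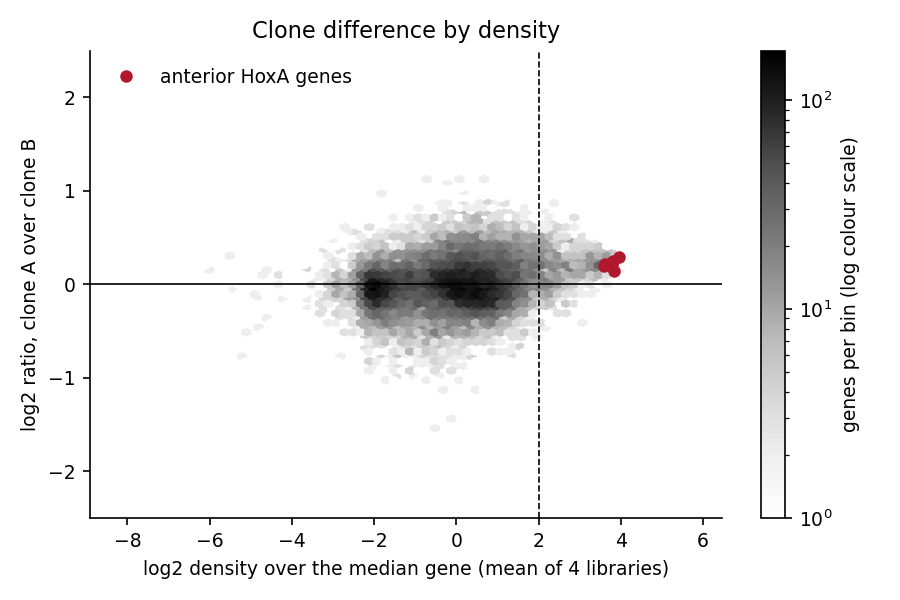
Log2 ratio of clone A over clone B against log2 density over the median gene (mean of 4 libraries) for all tested genes, as bins shaded by number of genes on a log scale, with the 6 anterior HoxA genes as red points. The dashed line marks 4 times the median; the anterior genes lie between 0.14 and 0.29, within the cloud of densely marked genes.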

How the data were processed

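H3K27me3 was measured by ChIP-seq in 4 libraries of mouse embryonic stem cells, and 4 input libraries were not analysed here. The deposited values are whole-number read counts over transcript intervals with their introns, per the file headers. The submitters' processing notes name Bowtie2, bedtools and mm10. Their versions, and how reads were assigned to intervals, are not given in the sources used. A further 12 per-library columns were not used.

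Counts were divided by interval length in kb and by the column total, and scaled to 1000000, to give a density. Genes were matched to intervals by overlap with RefSeq spans of GRCm38.p6 (at least 0.5 of the union). The 6 genes, the lists and the limit of 4 times the median density were chosen with earlier results of these data known. Genes named are the 6, those adjoining them, fixed lists, and the 5 coding genes of most similar density.

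Counts were tested with edgeR 4.0.16 (quasi-likelihood, TMM, filterByExpr, 50037 intervals) in R 4.3.3, with Benjamini-Hochberg adjusted p read at 0.05. SE is the log2 ratio over the square root of F. Alternatives were DESeq2 1.42.0, other factors, no filter, clone as a replicate block and leaving out each library. Each clone gave a library at 2 h and at 0 h, per the labels, which pairs the libraries, and those of a clone deviated together (r = 0.514 across 50037 intervals; intervals are no independent replicates). Python 3.11.15 was used for the tables. Reads carry no molecular identifiers, so counting errors cover counting alone. Some genes of the lists are not reported here by name.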

Additional observations from a re-analysis of the deposited data

Results flagged for a closer look

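Hoxa7 had values of opposite sign in the 2 clones over 2 h of 4OHT, as did 50.9% of all intervals. Its log2 change came to -0.12 for clone A and 0.04 for clone B, which differ by -0.16. Each clone has 1 library per time, and the difference was not tested. Counting error alone was up to 2.96% of the Hoxa7 value per library.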

How the results depend on the processing

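For 2 h against 0 h, 0 of the 6 genes were called under every alternative run. With clone as a replicate block, which uses the pairing, 0 intervals were called in either direction. Leaving out single libraries gave 0 to 1 intervals called lower, and mixes time with clone: log2 changes then ran from -0.22 to 0.056 for Hoxa2, -0.13 to 0.073 for Hoxa3, -0.18 to 0.049 for Hoxa5, -0.21 to 0.10 for Hoxa6 and -0.16 to 0.069 for Hoxa7, while Hoxa4 stayed positive (0.02 to 0.26).

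For clone A against clone B, leaving out single libraries gave 5252 to 8087 intervals called higher, 3414 to 4398 called lower, and 1 to 5 of the 6 genes called higher. DESeq2 called 5704 intervals higher, 3047 lower and 3 of the 6 genes. Factors from marked intervals, chosen after seeing the data, gave 2896 intervals higher and 20942 lower, and 2770 and 19213 with time as a term; 0 of the 6 genes were called in both, and Hoxa7 turned to -0.051 in both. Column totals left 4 genes called, with 15.5% of all intervals higher and 12.2% lower. The 6 genes are among the marked genes, so their lower log2 differences were built into the factors from marked intervals. The cause of the other shifts was not tested. Densities moved by less than the SD between libraries under every alternative run, and Hoxa6 had no value at an overlap of 0.9. For a single gene, leaving out 1 of 4 libraries cannot move the mean by as much as that SD. The small moves therefore say little about how stable the densities are.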
